A study of Mus musculus with 8 samples.

Results

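Transcripts for the recovery of sodium, phosphate, bicarbonate and water in the proximal tubule of the kidney were followed in mice given bisphenol A (BPA) or vehicle. The genes were chosen by name: the phosphate cotransporters Slc34a1 and Slc34a3, the sodium-proton exchanger Slc9a3 and its scaffold Slc9a3r1, the bicarbonate cotransporter Slc4a4, the carbonic anhydrases Car2 and Car4, the sodium pump subunit Atp1b1 and the water channel Aqp1. All 9 had a single row among the 54532 genes of the deposited table, and all 9 passed the filter on low values. The study sequenced polyadenylated RNA of whole kidney, with 4 libraries after BPA, a plastics monomer that binds estrogen receptors weakly, and 4 after vehicle. Library names give both groups as ICR, an outbred mouse stock; no source used here gives genotype, sex, age, dose, route or duration. Columns named with the letter C were read as the vehicle replicates, since the labels hold no other group besides BPA.

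As background, the proximal tubule takes back most of the filtered salt, phosphate, bicarbonate and water. The sodium pump in the basal membrane keeps cell sodium low, and that gradient drives sodium-coupled phosphate entry and sodium-proton exchange in the brush border. Secreted protons combine with filtered bicarbonate, membrane-bound carbonic anhydrase 4 turns the product into carbon dioxide and water, cytosolic carbonic anhydrase 2 forms bicarbonate again inside the cell, and the Slc4a4 product carries it out to the blood. Aquaporin 1 lets water follow the solutes.

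Whole reads recovered from the FPKM values (reads per kilobase of gene and scaled to a library size) numbered 15944081 to 17351540, and BPA and vehicle totals overlapped. No label ties a library to its own animal, so each p-value here reflects the spread of these libraries, part of which could be technical. BPA replicate 4 had reads for 17174 genes, where the remaining 7 had 19090 to 20845, and 14.2% of its reads were mitochondrial, where BPA replicates 1 to 3 had 9.66 to 9.85% and vehicle 7.02 to 8.33%. Of the proximal tubule markers, all 6 for all segments, all 6 for the early segments and all 5 for the straight segment were detected. Their summed levels were 2277 to 3450 FPKM in vehicle and 3228 to 4324 FPKM after BPA for all segments, 697 to 825 and 584 to 963 FPKM for the early segments, and 2885 to 3820 and 2653 to 3413 FPKM for the straight segment. The early sum was mostly Slc22a6, at 478 to 650 FPKM in vehicle and 355 to 584 FPKM after BPA (log2 change -0.25). The rest of that list went the other way. Slc5a12, Slc6a19, Slc7a8, Slc7a7 and Slc5a2 had log2 changes of 0.81, 0.64, 0.49, 0.36 and 0.22. Proximal tubule markers were thus present at high levels, as the kidney label calls for, but whole tissue does not show which cells held a transcript. Fewer cells of a type and less RNA per cell cannot be told apart here. Skeletal muscle markers summed to 224 FPKM in vehicle replicate 4 and to at most 1.17 FPKM in the BPA libraries, while adipocyte markers summed to 0.253, 69.0, 25.7 and 233 FPKM in vehicle replicates 1 to 4 and to 12.4 FPKM or less with BPA. The GC content of transcripts moved with the groups as well: how far genes stood from their own averages correlated with GC at 0.130 to 0.253 in the vehicle libraries and at -0.287 to -0.0531 in the BPA libraries. The log2 change had a Spearman correlation of -0.40 with GC across tested genes, and genes do not count as independent replicates. The change after a correction for GC is given with each of the 9 genes.

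Levels of the 9 genes in vehicle kidney spanned a wide range. FPKM is scaled by gene length, so it can be set side by side between genes. Slc34a1 had the highest mean, 1097 ± 46.3 FPKM (SD, n = 4), and was number 22 of all genes in the table. Atp1b1 followed at 634 ± 135 FPKM, Aqp1 at 303 ± 28.3 FPKM and Slc9a3r1 at 229 ± 40.2 FPKM. Car4 was at 162 ± 9.82 FPKM, Slc4a4 at 103 ± 13.5 FPKM and Car2 at 90.9 ± 17.9 FPKM. Slc9a3, at 24.4 ± 4.36 FPKM, and Slc34a3, at 8.25 ± 4.95 FPKM, were the lowest. Neighbours in this order overlapped between libraries for Aqp1 and Slc9a3r1 and for Slc4a4 and Car2. The gene length behind the FPKM joined all annotated exons and exceeded the longest annotated transcript by a factor of 1 to 1.57, most for Car4. With the longest transcript as the length, Car4 (253 FPKM) stood above Slc9a3r1 (229 FPKM), and Slc4a4 was at 140 FPKM in the vehicle mean; the rest of the order stayed as it was.

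**Figure D1:**
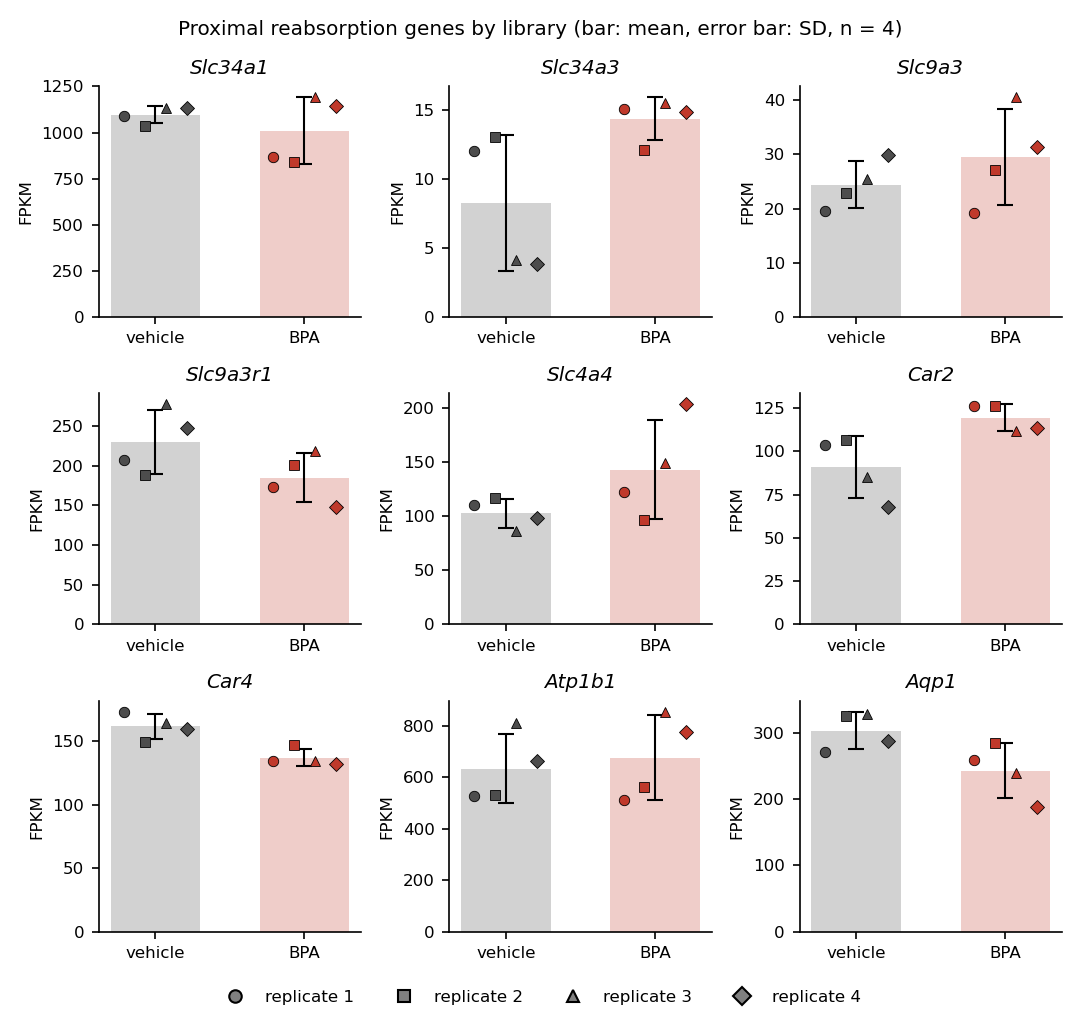
Level of each gene in FPKM (vertical axes, each from 0) in the 4 vehicle and 4 BPA libraries; points are libraries with a symbol per replicate number, bars are means and error bars are SD. Car2 was higher and Car4 lower in every BPA library than in any vehicle library, while the other 7 genes overlapped between the groups.

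The comparison of BPA with vehicle asked whether reabsorption transcripts differed after exposure. None of the 9 genes passed limma's test on log2(FPKM + 1) after Benjamini-Hochberg adjustment over all 13376 genes tested, where 0.00748% of genes were called. At an unadjusted p under 0.05 there were 2 of the 9, Slc34a3 and Car2, both higher in BPA, with 0 on the lower side; of all tested genes 4.18% were higher and 6.83% lower by that rule. Limma-voom on the recovered reads also called 0 of the 9 after adjustment. There, 3 of the 9 had an unadjusted p under 0.05, as did 1507 of all 13376 genes. By direction alone, 5 of the 9 were higher in BPA (Slc34a3, Slc4a4, Car2, Slc9a3 and Atp1b1) and 4 lower (Aqp1, Slc9a3r1, Car4 and Slc34a1), with a median log2 change of 0.085, against -0.012 over all tested genes. The groups did not overlap for 1 higher gene (Car2) and 1 lower gene (Car4), where 7.89% of all tested genes were separated, 3.23% upward and 4.66% downward. Limma gave adjusted p-values of 0.415 to 0.887 for the 9 genes.

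**Figure D2:**
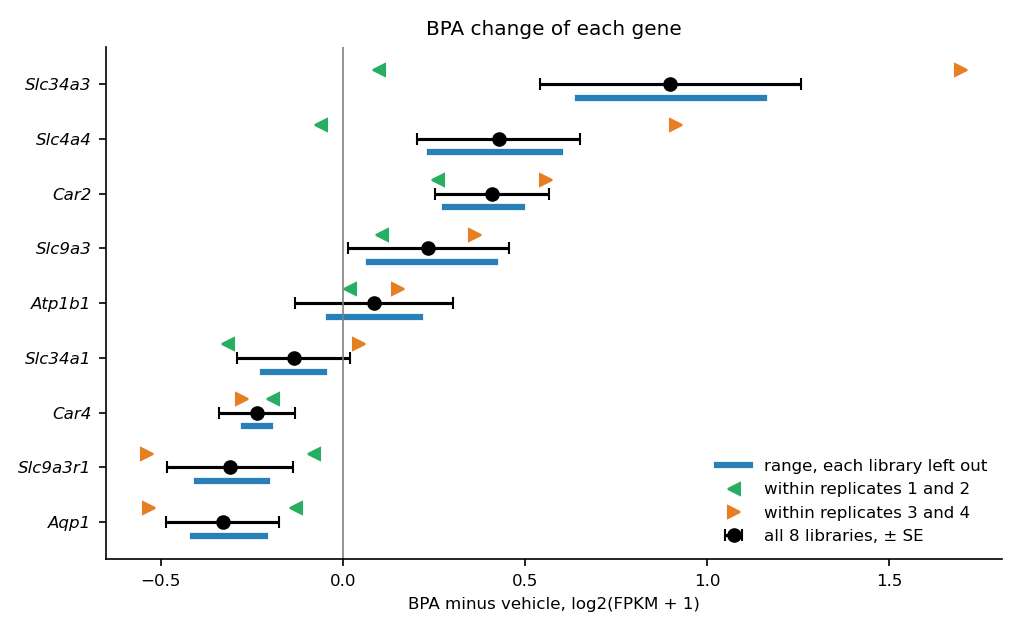
Change of each gene, BPA minus vehicle, on the log2(FPKM + 1) scale (horizontal axis). Black points show all 8 libraries ± SE, blue bars the range when each library was left out, and triangles the change within replicates 1 and 2 (green) and within replicates 3 and 4 (orange). Slc34a3 was at 0.90 over all libraries, 0.10 within replicates 1 and 2 and 1.70 within replicates 3 and 4.

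Phosphate entry was compared first. Slc34a1 encodes NaPi-IIa, the main phosphate cotransporter of the mouse brush border, and lies on chromosome 13 (chr13:55398187-55415592, plus strand, GRCm38). It was at 1089, 1034, 1133 and 1131 FPKM in vehicle replicates 1 to 4 and at 869, 838, 1191 and 1143 FPKM in BPA replicates 1 to 4. BPA replicates 1 and 2 lay below all the vehicle libraries and BPA replicates 3 and 4 above them, so the groups overlapped and the spread was wider in BPA (SD 183 FPKM) than in vehicle (SD 46.3 FPKM). The log2 change was -0.14 (SE 0.154, limma adjusted p = 0.735), with -0.31 within replicates 1 and 2 and 0.044 within replicates 3 and 4. The transcript has a GC content of 54.7%, and after correction for GC the change was -0.018. Without BPA replicate 1 or 2 it was -0.069 or -0.051, and without BPA replicate 3 it was -0.22. Its exons overlap Pfn3 on the opposite strand, which was at 0 FPKM in all libraries, and whether reads were counted by strand is not given in the sources used here.

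Slc34a3 encodes NaPi-IIc, a second cotransporter of the same family, and lies on chromosome 2 (chr2:25228898-25234364, minus strand). It was at 12.0, 13.0, 4.11 and 3.86 FPKM in vehicle replicates 1 to 4 and at 15.1, 12.1, 15.5 and 14.8 FPKM after BPA. The BPA libraries were close to each other and to vehicle replicates 1 and 2, and vehicle replicates 3 and 4 were the low ones. The mean was 8.25 ± 4.95 FPKM in vehicle and 14.4 ± 1.57 FPKM after BPA, a ratio of 1.74, higher than the vehicle mean in 4 of 4 BPA libraries (log2 change 0.90, SE 0.358, unadjusted p = 0.0341, limma adjusted p = 0.429). The lowest library rested on 150 reads, where counting error alone is 8.16% of the value, against a spread of 59.9% between the vehicle libraries. Other measures were low in the same vehicle libraries. Podocyte markers (5 of 5 detected) summed to 47.0, 48.9, 13.7 and 11.5 FPKM in vehicle replicates 1 to 4. In BPA replicates 1 to 4 they summed to 42.3, 55.1, 31.8 and 52.5 FPKM. Endothelial markers (6 of 6 detected) summed to 54.3, 64.0, 19.7 and 19.0 FPKM in vehicle and to 60.1, 72.6, 30.5 and 33.2 FPKM in BPA. Endothelial markers were thus lower in replicates 3 and 4 of both groups. Podocyte markers were lower in both of these replicates in vehicle alone, as was Slc34a3. In BPA the podocyte sum was lowest in replicate 3, while replicate 4 lay between replicates 1 and 2. The part of either marker list in the result was not tested. Without vehicle replicate 3 or 4 the log2 change of Slc34a3 was 0.67 or 0.65, and without both replicates 4 it was 0.63. Its GC content was 56.4%, and after correction for GC the change was 1.05.

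Promoter letters are shown for the 2 phosphate cotransporters, whose levels across the libraries differed, and for the exchanger Slc9a3. The 250 bases before each RefSeq start were taken from the RefSeq table of GRCm38.p6, which matched 8 of the 9 genes (Car2 was not matched). Capitals mark matches on either strand to the HNF1 core (GTTAAT), the nuclear receptor core (AGGTCA), the E-box (CACGTG), the GC box (GGGCGG) and the CCAAT box (CCAAT). The TATA box (TATAAA), the D-box (TTATNTAA) and the AP-1 site (TGANTCA) were also searched and had no match in the 9 windows of these 8 genes.
Slc34a1, chr13:55399398-55399647, plus strand: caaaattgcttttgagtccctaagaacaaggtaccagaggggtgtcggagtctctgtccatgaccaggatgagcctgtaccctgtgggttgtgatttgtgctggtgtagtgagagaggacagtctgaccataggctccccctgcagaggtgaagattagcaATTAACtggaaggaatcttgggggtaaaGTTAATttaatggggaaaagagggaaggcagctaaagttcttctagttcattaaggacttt
Slc34a3, chr2:25234235-25234484, minus strand: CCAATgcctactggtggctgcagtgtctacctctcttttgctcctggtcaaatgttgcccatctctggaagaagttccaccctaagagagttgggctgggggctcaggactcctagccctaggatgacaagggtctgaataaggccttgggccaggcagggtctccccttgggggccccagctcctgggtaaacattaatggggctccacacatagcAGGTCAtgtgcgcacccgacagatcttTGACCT
Slc9a3, chr13:74121163-74121412, plus strand: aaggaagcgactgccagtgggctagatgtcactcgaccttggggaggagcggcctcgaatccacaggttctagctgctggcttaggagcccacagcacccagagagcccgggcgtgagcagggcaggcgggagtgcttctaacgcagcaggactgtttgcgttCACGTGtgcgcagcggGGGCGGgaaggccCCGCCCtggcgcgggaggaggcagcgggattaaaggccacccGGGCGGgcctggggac
The Slc34a1 window held 2 copies of the HNF1 core, at -89 and -61 from the start, a sequence that 6.43% of 32851 such windows hold. The Slc34a3 window held 2 nuclear receptor cores, at -33 and -6 and on opposite strands (4607 of the windows hold it), and no HNF1 core. The Slc9a3 window, alone among the 9, held an E-box, at -87, the sequence bound by the clock proteins CLOCK and BMAL1 (6.02% of windows). It also held 3 GC boxes (32.7% of windows). CpG pairs numbered 1, 2 and 19 in these windows, against a median of 6. These matches describe letters only.

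Within a library, scaling cancels from the ratio of the cotransporters except through the 1 added to each FPKM, which weighs more on the low gene Slc34a3. The log2 ratio of Slc34a1 to Slc34a3 was 6.39, 6.21, 7.79 and 7.86 in vehicle replicates 1 to 4 and 5.76, 6.01, 6.17 and 6.18 in BPA. All 4 BPA libraries lay below every vehicle library, BPA replicate 4 by the smallest margin. In linear terms that margin was 72.4 in BPA replicate 4 against 73.8 in vehicle replicate 2. Slc34a3 rested on 577 and 549 reads there, so the separation is narrow enough for counting error to matter. The difference was -1.03 (exact permutation p = 0.0286, 2-sided, the smallest this design allows; adjusted p = 0.0714 over 5 ratios), with -0.41 from replicates 1 and 2 alone and -1.65 from replicates 3 and 4 alone. With 0.1 added in place of 1 it was -1.14. It did not pass after adjustment. With only this ratio and that of Car4 to Car2 at the smallest p, neither could go below an adjusted p of 0.0714. The miss therefore cannot tell a difference from none.

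**Figure D3:**
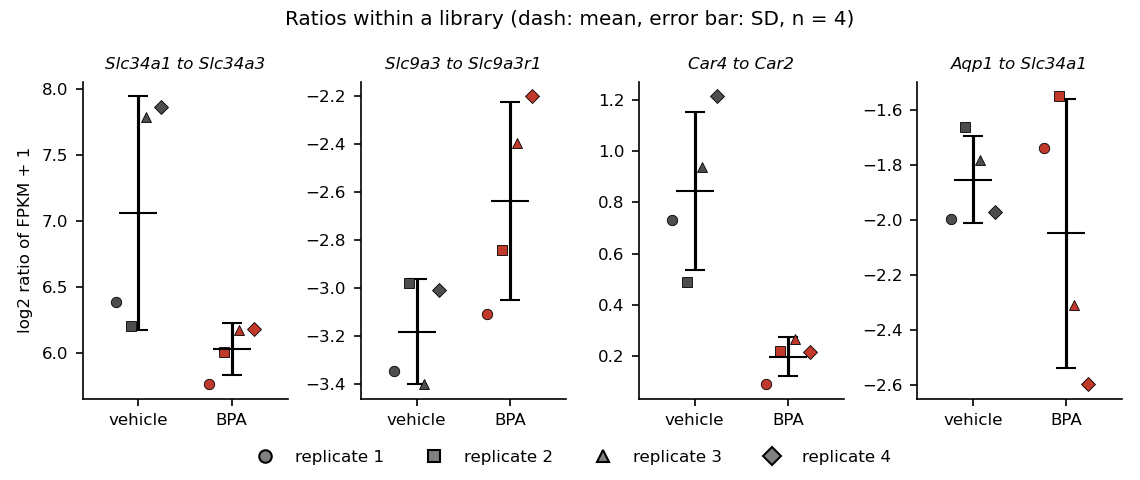
Log2 ratio of 2 genes within a library, from FPKM + 1 (vertical axes, not from 0), for 4 gene pairs in the vehicle and BPA libraries; points are libraries, dashes means and error bars SD. Slc34a1 to Slc34a3 and Car4 to Car2 lay below the whole vehicle range in each BPA library. Their adjusted p was 0.0714 each (exact permutation), the lowest value that 2 ratios at the smallest p can reach here.

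Other genes of phosphate transport and its control were taken from a list of 8, all tested. None passed limma's test in either direction, 0 were at an unadjusted p under 0.05, 4 were higher and 4 lower, and the median log2 change was -0.0023. Pth1r, the receptor through which parathyroid hormone withdraws phosphate cotransporters from the brush border, was at 299 ± 22.0 FPKM in vehicle and 267 ± 45.2 FPKM after BPA (log2 change -0.18). Pdzk1, a scaffold that binds NaPi-IIa, was at 139 ± 41.7 and 123 ± 19.7 FPKM. Kl, the klotho co-receptor of the phosphate hormone FGF23, was at 111 ± 8.69 and 126 ± 29.5 FPKM. The phosphate exporter gene Xpr1 was at 10.3 ± 0.316 FPKM in vehicle and 13.2 ± 3.62 FPKM after BPA (log2 change 0.30, limma adjusted p = 0.513).

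Sodium-proton exchange came next. Slc9a3 encodes NHE3, which exchanges luminal sodium for cell protons in the brush border, and lies on chromosome 13 (chr13:74121457-74169442, plus strand). Its level was 19.5, 22.9, 25.4 and 29.8 FPKM in vehicle and 19.2, 27.03, 40.6 and 31.4 FPKM after BPA. The groups overlapped, with BPA replicate 1 the lowest library and BPA replicate 3 the highest. The log2 change was 0.23 (SE 0.222, limma adjusted p = 0.679), 0.11 within replicates 1 and 2 and 0.36 within replicates 3 and 4. Without BPA replicate 3 it was 0.070, without BPA replicate 1 it was 0.42, and after correction for GC 0.29.

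Slc9a3r1 encodes NHERF1, a PDZ scaffold that anchors NaPi-IIa and NHE3 to the cytoskeleton, and lies on chromosome 11 (chr11:115163341-115181181, plus strand). It was at 207, 187, 277 and 247 FPKM in vehicle and at 173, 200, 218 and 148 FPKM after BPA. The groups overlapped, and all 4 BPA libraries were below the vehicle mean. The log2 change was -0.31 (SE 0.174, limma adjusted p = 0.512), -0.080 within replicates 1 and 2 and -0.54 within replicates 3 and 4. Slc9a3r1 had the highest GC content of the 9, 58.5%, and after correction for GC the change was -0.12. The log2 ratio of Slc9a3 to Slc9a3r1 averaged -3.18 ± 0.219 in vehicle and -2.64 ± 0.412 in BPA, and the groups overlapped (difference 0.54, exact permutation p = 0.0857, adjusted p = 0.143 over 5 ratios).

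Scaffold partners and NHE3 regulators formed a list of 15, of which 13 were tested and 0 passed limma's test in either direction. At an unadjusted p under 0.05 there were 2 higher and 0 lower, against 4.18% and 6.83% of all tested genes. Dpp4, a brush border peptidase that binds NHE3, was at 10.1, 7.53, 9.48 and 4.57 FPKM in vehicle and at 14.1, 13.5, 15.2 and 17.1 FPKM after BPA. Every BPA library was above every vehicle library (log2 change 0.88, SE 0.209, unadjusted p = 0.00235, limma adjusted p = 0.321). Agtr1a, the angiotensin II receptor gene whose product stimulates NHE3, was at 14.9, 16.3, 9.95 and 10.8 FPKM in vehicle and at 16.5, 17.2, 22.3 and 18.7 FPKM after BPA (log2 change 0.51, SE 0.17, limma adjusted p = 0.385). Its groups did not overlap either, but BPA replicate 1 and vehicle replicate 2 were close. Upward separation of this kind held for 3.23% of all tested genes. Pdzk1ip1, a small partner of PDZK1, had a log2 change of 0.076 and Ezr, the ezrin that ties NHERF1 to actin, of -0.073. Both were above 100 FPKM in the mean of each group. Of 8 other sodium-proton exchangers 4 were tested, all higher by direction and 0 at an unadjusted p under 0.05; Slc9a8, which encodes NHE8, had the highest level, 17.8 ± 6.60 FPKM in vehicle and 21.5 ± 4.18 FPKM after BPA, while Slc9a2 (log2 change 0.19) was lower in level.

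**Figure D4:**
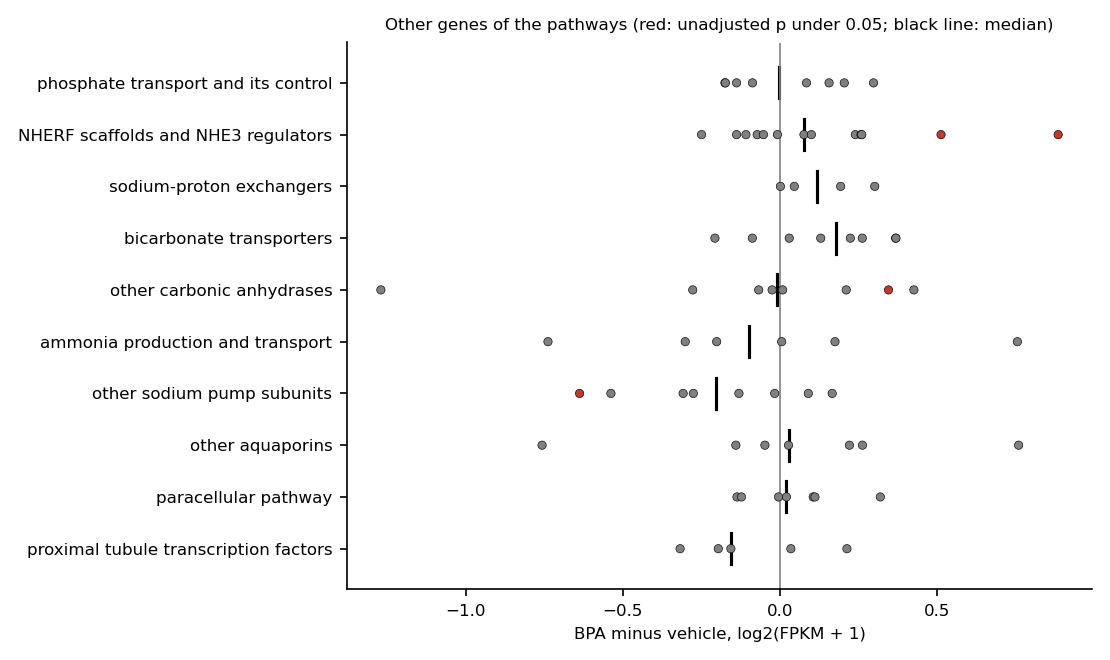
Change of the tested genes of 10 lists, BPA minus vehicle, on the log2(FPKM + 1) scale (horizontal axis); each point is a gene, black lines are list medians and red points have an unadjusted p under 0.05. The red points are Dpp4 and Agtr1a among the NHE3 regulators, Car8 among the carbonic anhydrases and Fxyd1, lower, among the sodium pump subunits; no point passed limma's test after adjustment.

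Bicarbonate recovery was described by its exit carrier and by the carbonic anhydrases. Slc4a4 encodes NBCe1, which moves bicarbonate and sodium across the basal membrane, and lies on chromosome 5 (chr5:88886818-89239653, plus strand). It was at 110, 117, 85.9 and 98.2 FPKM in vehicle and at 122, 96.4, 149 and 203 FPKM after BPA. BPA replicate 2 lay inside the vehicle range, whereas BPA replicates 1, 3 and 4 were above every vehicle library. The log2 change was 0.43 (SE 0.222, limma adjusted p = 0.492), -0.061 within replicates 1 and 2 and 0.92 within replicates 3 and 4. BPA replicate 4, the library with the most mitochondrial reads, held the highest Slc4a4, and without it the log2 change was 0.24. Slc4a4 had the lowest GC content of the 9, 45.9%, and after correction for GC its change was 0.39.

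Car2, the cytosolic carbonic anhydrase, which intercalated cells and red blood cells express as well, lies on chromosome 3 (chr3:14886273-14900770, plus strand). It was at 104, 106, 85.3 and 68.0 FPKM in vehicle and at 126, 126, 112 and 114 FPKM after BPA. All 4 BPA libraries were above every vehicle library, by the least between vehicle replicate 2 and BPA replicate 3. The mean was 90.9 ± 17.9 FPKM in vehicle and 119 ± 7.74 FPKM after BPA, a ratio of 1.31 (log2 change 0.41, SE 0.157, unadjusted p = 0.0286, limma adjusted p = 0.415). Replicates 1 and 2 alone gave a log2 change of 0.26, and replicates 3 and 4 alone 0.56; after correction for GC the change was 0.43. Intercalated cell markers (6 of 6 detected) summed to 77.7, 71.5, 88.4 and 53.3 FPKM in vehicle and to 69.9 to 96.9 FPKM after BPA, so those groups overlapped. Red blood cell markers (5 of 5 detected) summed to 247 to 629 FPKM in vehicle and 378 to 991 FPKM after BPA; the part of either in the Car2 result was not tested.

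Car4, the carbonic anhydrase held on the outer face of the membrane, lies on chromosome 11 (chr11:84957786-84966044, plus strand). It was at 173, 150, 164 and 159 FPKM in vehicle and at 134, 147, 135 and 132 FPKM after BPA. All 4 BPA libraries were below every vehicle library, but BPA replicate 2 and vehicle replicate 2 were close together. The mean went from 162 ± 9.82 to 137 ± 6.84 FPKM, a ratio of 0.848 (log2 change -0.24, SE 0.104, unadjusted p = 0.0513, limma adjusted p = 0.455). Car4 had the smallest relative spread in BPA, with an SD of 4.99% of the mean, and its log2 change had the same sign in replicates 1 and 2 alone (-0.19) and in replicates 3 and 4 alone (-0.28). It was -0.18 after correction for GC and -0.11 with quantile normalization.

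The membrane-bound and the cytosolic enzyme were also compared as a ratio. The log2 ratio of Car4 to Car2 was 0.73, 0.49, 0.94 and 1.22 in vehicle replicates 1 to 4 and 0.091, 0.22, 0.27 and 0.22 in BPA. All 4 BPA libraries were below every vehicle library, which in linear terms is 1.40 to 2.32 Car4 per Car2 in vehicle and 1.07 to 1.203 in BPA. The difference was -0.64 (exact permutation p = 0.0286, adjusted p = 0.0714 over 5 ratios), -0.45 within replicates 1 and 2 and -0.84 within replicates 3 and 4. It did not pass after adjustment either, with the same lower limit of 0.0714. Since Car4 was lower and Car2 higher in every BPA library, this separation and its smallest p were fixed beforehand. The ratio restates those 2 results and adds no test of its own.

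Among 14 other carbonic anhydrases, 8 were tested and 0 passed limma's test. An unadjusted p under 0.05 was reached by 1 as higher and 0 as lower (4.18% and 6.83% of all tested genes). That gene was Car8, a family member without enzyme activity, which was low (0.405 ± 0.123 FPKM in vehicle and 0.784 ± 0.169 FPKM after BPA, limma adjusted p = 0.408). Car12 and Car14, both membrane enzymes of the nephron, were at 34.9 ± 4.63 and 37.3 ± 19.3 FPKM in vehicle and at 41.4 ± 11.9 and 35.2 ± 16.01 FPKM after BPA. Car3, a muscle and fat enzyme, was at 0.572, 51.2, 10.6 and 92.2 FPKM in vehicle and 2.03 to 10.0 FPKM after BPA. The vehicle libraries stood in the same order by their adipocyte marker sums, while skeletal muscle markers were high in vehicle replicate 4 alone. The part of fat or muscle in the Car3 levels was not tested. Car13 had a log2 change of 0.43 (limma adjusted p = 0.549).

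Of 12 other bicarbonate transporters 8 were tested, 6 higher and 2 lower by direction, with 0 passing limma's test and 0 at an unadjusted p under 0.05. Slc26a1, a sulfate and bicarbonate exchanger of the basal membrane, was the highest at 68.2 ± 3.53 FPKM in vehicle and 78.6 ± 30.9 FPKM after BPA. The intercalated cell exchangers Slc26a4, Slc4a9 and Slc4a1 had log2 changes of 0.26, -0.21 and 0.37. Slc4a7, another bicarbonate cotransporter, went from 0.533 ± 0.0764 to 0.789 ± 0.0615 FPKM without overlap (limma adjusted p = 0.477). Of all tested genes, 3.23% were separated upward. Ammonia production and transport, which makes new bicarbonate, had 6 of 7 genes tested, 0 passing and 0 at an unadjusted p under 0.05. Its highest gene Pck1, which also serves in making glucose, averaged 976 ± 418 FPKM in vehicle and 567 ± 174 FPKM after BPA (log2 change -0.74, limma adjusted p = 0.46). Glud1, which releases ammonia from glutamate, had a log2 change of 0.0046, and the ammonia channels Rhcg and Rhbg had -0.20 and -0.30.

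Sodium leaves the cell through the pump. Atp1b1, the beta subunit that brings the pump to the membrane and is expressed along the whole nephron, lies on chromosome 1 (chr1:164437109-164458355, minus strand). It was at 529, 530, 813 and 663 FPKM in vehicle and at 513, 562, 855 and 777 FPKM after BPA. The groups overlapped throughout, and in both of them replicates 3 and 4 were above replicates 1 and 2. The log2 change was 0.085 (SE 0.217, limma adjusted p = 0.887). It turned to -0.038 when BPA replicate 3 was left out and to -0.018 when limma weighted the libraries, and it was 0.11 after correction for GC. Atp1b1 overlaps an exon of Nme7 on the opposite strand, which was at 2.57 to 4.91 FPKM.

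Of 13 other pump subunits 8 were tested, 2 higher and 6 lower by direction, with 0 passing limma's test. An unadjusted p under 0.05 was reached by 1 as lower and 0 as higher (6.83% and 4.18% of all tested genes). The lower gene was Fxyd1, a pump regulator found in muscle, at 1.25, 0.819, 0.680 and 2.11 FPKM in vehicle and 0.580, 0.677, 0.337 and 0.0277 FPKM after BPA (limma adjusted p = 0.408). Fxyd2, the gamma subunit of the kidney pump, was at 375, 288, 382 and 338 FPKM in vehicle and 296, 341, 302 and 102 FPKM after BPA. BPA replicate 4 was the low library, and the groups otherwise overlapped (log2 change -0.54, limma adjusted p = 0.563). Atp1b3 had a log2 change of 0.17.

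Water follows through Aqp1, the channel of the proximal tubule and the descending thin limb, which endothelial cells of the descending vasa recta and red cells also hold. The gene lies on chromosome 6 (chr6:55336432-55348555, plus strand). Its level was 272, 326, 329 and 288 FPKM in vehicle and 260, 285, 239 and 188 FPKM after BPA. All 4 BPA libraries were below the vehicle mean, but BPA replicate 2 lay above vehicle replicate 1. The mean was 303 ± 28.3 FPKM in vehicle and 243 ± 41.3 FPKM after BPA, a ratio of 0.801 (log2 change -0.33, SE 0.155, unadjusted p = 0.0619, limma adjusted p = 0.469), with -0.13 within replicates 1 and 2 and -0.53 within replicates 3 and 4. After correction for GC (54.9% in Aqp1) the change was -0.21, and without BPA replicate 4 it was also -0.21. Of 5 descending thin limb markers only Cryab passed the filter on low values, at 2.57 to 7.604 FPKM in vehicle and 1.84 to 12.3 FPKM after BPA, and Slc14a2 was at 0 in all but vehicle replicate 1; the list summed to 3.25 to 8.04 and 2.70 to 13.0 FPKM. The log2 ratio of Aqp1 to Slc34a1 was -1.85 ± 0.16 and -2.05 ± 0.488 (difference -0.20, exact permutation p = 0.486, adjusted p = 0.543), and the difference was -0.012 without BPA replicate 4.

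Of 10 other aquaporins 7 were tested and 0 passed limma's test or had an unadjusted p under 0.05. The collecting duct channel Aqp2 was at 84.2 ± 43.0 FPKM in vehicle and 47.1 ± 15.7 FPKM after BPA (log2 change -0.76, limma adjusted p = 0.463), and Aqp3 had a log2 change of -0.14. Principal cell markers, of which Aqp2 and Aqp3 are part, summed to 261 FPKM in vehicle replicate 3 and to 105 to 140 FPKM in the other libraries. Aqp6 and Aqp7 had log2 changes of -0.049 and 0.26. Paracellular genes (7 of 7 tested, 0 passing, 0 at an unadjusted p under 0.05) included Cldn2, the sodium-permeable claudin of the proximal tubule, at 196 ± 14.7 and 180 ± 12.9 FPKM, and Cldn10, F11r and Tjp1 with log2 changes of 0.11, -0.14 and 0.32. Among 5 transcription factors of the tubule, all tested, 0 passed and 0 were at an unadjusted p under 0.05. Hnf4a was at 188 ± 9.08 FPKM in vehicle and 171 ± 31.8 FPKM after BPA, and Pax8 and Hnf4g had log2 changes of -0.20 and 0.21.

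The 9 genes did not vary as a block across the libraries. Pearson correlations of log2(FPKM + 1) over the 8 libraries of both groups ran from -0.90, for Slc4a4 and Aqp1, to 0.90, for Slc34a3 and Car2, and are given as descriptions that share libraries and scaling. Slc34a1, Slc9a3 and Atp1b1 resembled each other (0.52 to 0.81), as did Slc9a3r1, Car4 and Aqp1 (0.66 to 0.68). Slc34a1 and Slc34a3, which share a function, had a correlation of -0.31.

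**Figure D5:**
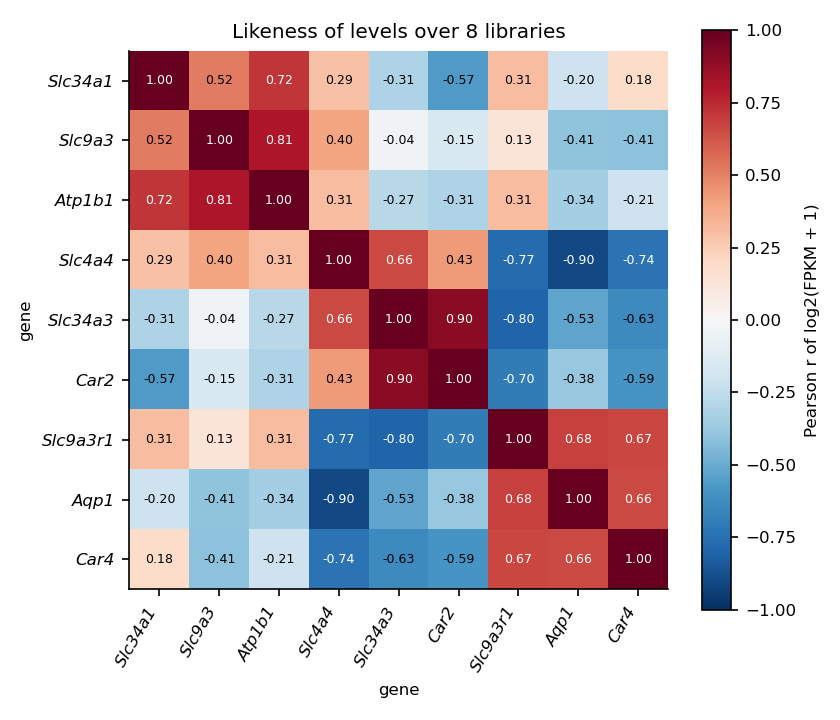
Pearson correlation of log2(FPKM + 1) between each 2 of the 9 genes over the 8 libraries (both axes list the genes; red is positive, blue negative). Slc34a3 with Car2 (0.90) and Slc9a3 with Atp1b1 (0.81) were the highest, and Slc4a4 with Aqp1 (-0.90) the lowest.

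Some of the 9 genes differed by replicate number. In both groups, replicates 3 and 4 were above replicates 1 and 2 for 3 of the 9 genes, Slc34a1, Slc9a3 and Atp1b1, and below them for 1, Car2; among all tested genes 7.21% and 6.43% were so. The clock gene Arntl divided the libraries by the same numbers, at 2.22 to 4.27 FPKM for replicates 1 and 2 against 0.106 to 0.550 FPKM for 3 and 4, and its output gene Dbp did so the other way, with 0.876 to 9.02 FPKM against 22.4 to 44.2 FPKM. The labels do not make this division, and the part of the clock in the levels of the 9 genes was not tested. Slc4a4 moved in opposite ways, with replicates 3 and 4 below replicates 1 and 2 in vehicle and above them in BPA.

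The mean standardised level of the 9 genes ran from -0.44 in BPA replicate 1 to 0.53 in BPA replicate 3, with -0.12 to 0.18 in vehicle. Of 5890 other protein-coding genes with a mean of at least 5 FPKM, the 5 whose profile was most like it over the 8 libraries were Hsd3b2 (r = 0.91), Sil1 (0.91), Rnf145 (0.91), Napa (0.91) and Map1lc3b (0.91). The highest of so many correlations over 8 libraries can be large without any relation, so these are descriptions only. The profile also averages genes that did not vary as a block.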

How the data were processed

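Polyadenylated RNA of mouse kidney was sequenced in 4 BPA and 4 vehicle libraries. The authors deposited FPKM per gene, with gene lengths and coordinates. DESeq2 1.20.0 and GRCm38 are named in the submitters' processing notes with no role; the aligner and counter are not stated there. Per the file headers, the table also gives other columns that describe each gene, such as its length in bases, equal to the joined exons of GENCODE M21 for all 9 genes. FPKM times length was a whole multiple of 1 step per library within 0.01 reads in 100% of values, which gave the reads; the deposited scaling followed the median ratio. Limma 3.58.1 (R 4.3.3) was fitted to log2(FPKM + 1), with a trended robust variance and no covariate, over 13376 genes with a mean of at least 0.5 FPKM; this scale understates changes of low genes. Calls needed an adjusted p (Benjamini-Hochberg) under 0.05. The 5 ratios were tested by a 2-sided exact permutation over 70 assignments and adjusted together; 1 ratio and some single genes of the lists are not reported here, though they stay in the counts. Promoters and transcripts (blastn 2.17.0) came from RefSeq and GENCODE. The fit was tested on simulated data. Named from each list were its 3 highest genes and the 2 with the smallest p. The genes, lists, the split of replicates and the alternatives were chosen with earlier results of these data known. Libraries within a group were not duplicates (chi-square per gene 15.5 to 100.2). Python 3.11.15 and matplotlib 3.10.9 were used.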

Additional observations from a re-analysis of the deposited data

Results flagged for a closer look

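Car4 in BPA replicate 2, at 147 FPKM, stood apart from the other BPA libraries, which were at 132 to 135 FPKM; the gap was 0.836 of the group's range, above the critical value of 0.829 for 4 samples. It was the only 1 of 28 groups of 4 (9 genes and 5 ratios in each group) to do so, and chance gives about 1 in 20.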

How the results depend on the processing

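Under the 22 alternatives to the fit, 0 of the 9 genes were called, and 8 of the 9 kept their direction throughout. An unadjusted p under 0.05 was reached by 0 to 4 of the 9. The 4 came without BPA replicate 2, where 1685 of all 13376 tested genes reached it. Such genes numbered 1087 to 1685 when each library was left out. Atp1b1 turned to -0.038 without BPA replicate 3 and to -0.018 with library weights, and reached 0.21 without vehicle replicate 3. The count of called genes among all tested was 1, and it became 8 with library weights, 2 with a term for replicates 1 and 2 against 3 and 4, and 0 with limma-voom on recovered reads (1507 at an unadjusted p under 0.05), with protein-coding genes alone (1349) and with a replicate block (1376). When each library was left out it ran from 0 to 4 (0 without replicate 1 or 3 of vehicle, or replicate 2 of BPA). The cause was not tested. The replicate numbers gave no steady pairing: deviations of libraries with the same number correlated at 0.14, 0.019, 0.14 and -0.033. Unlike numbers ran from -0.22 (vehicle replicate 1 with BPA replicate 3) to 0.19 (vehicle replicate 4 with BPA replicate 3). Under the replicate block 2 of the 9 genes had an unadjusted p under 0.05, as without it. The 4 ratios shown kept their direction under the alternatives run for them; with the replicate block and without both replicates 4 the exact tests cannot go below p = 0.125 and 0.1, so a miss there says nothing about stability. Correction for GC took the change of Slc34a1 from -0.14 to -0.018 and that of Slc9a3r1 from -0.31 to -0.12, with directions kept. Leaving out each library in turn gave 0.65 to 1.16 for Slc34a3, 0.28 to 0.49 for Car2, -0.27 to -0.20 for Car4, -0.22 to -0.051 for Slc34a1, 0.070 to 0.42 for Slc9a3, -0.40 to -0.21 for Slc9a3r1, 0.24 to 0.60 for Slc4a4 and -0.41 to -0.21 for Aqp1. Quantile normalization gave -0.11 for Car4, -0.18 for Slc9a3r1, -0.22 for Slc34a1, -0.21 for Aqp1 and 0.14 for Atp1b1, and library weights 0.22 for Slc4a4, 0.089 for Slc9a3 and -0.21 for Aqp1. Slc34a3 rests on the fewest reads, 150 to 616 per library.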
